A study of Drosophila melanogaster with 384 samples.

Results

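The genes described here make ribosomes. The set holds 34 listed symbols of nucleolar proteins, RNA polymerase I subunits and assembly factors of both ribosomal subunits. Members were the listed genes that matched a row of the count table by symbol or synonym and had a mean of at least 1 read per 1000000 (CPM) over the control and the tumor pool. In all, 33 matched and all 33 passed, of 7436 features that passed the same minimum and 14219 in the table. The remaining symbol, hoip, matched no row and has no value.

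The cells were neuroblasts, the neural stem cells, sorted from dissected brains of wandering third-instar larvae of Drosophila melanogaster, with the nerve cord removed. Both genotypes carried 1 copy each of UAS-Dcr2, inscGal4 and UAS-CD8::GFP, so a dicer that strengthens RNA interference and a membrane GFP were made wherever the inscuteable driver was active, mainly in neuroblasts. Control larvae added a hairpin against mCherry, a gene flies lack (sh-mCherry), and tumor larvae a hairpin against brat (sh-brat), a translational repressor whose loss fills the brain with neuroblast-like cells. Larvae were kept at 29 °C and were 6 to 7 days old, and sorted single cells were made into full-length SMART-Seq2 libraries of polyadenylated RNA.

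Control cells came from a pool of 5 brains (plates 1 and 2) and tumor cells from a pool of 3 brains (plates 3 and 4). With 1 pool a group there is no biological replicate and no test, and a plate effect and a group effect cannot be told apart. After a minimum of 100000 reads and 1000 genes a cell, 89, 91, 93 and 92 cells remained on plates 1 to 4. Kept control cells held a median of 1507070 reads (126882 to 2329488) and kept tumor cells 1122670 (185566 to 1960187). A median control cell had 5801.5 genes with a read and a median tumor cell 3651, and at 100000 reads in every cell these were 5013.5 and 3165. The neuroblast genes dpn (919.6 and 1539.5 CPM in the pools, control first) and mira (1558 and 1436 CPM) were high in both pools, and the glial gene repo (0.0875 and 0.0489 CPM), the neuronal gene brp (0.616 and 0.0342 CPM) and the hemocyte gene Hml (0.0304 and 0.00 CPM) were near 0. Over whole marker lists, 7 measured neuronal genes summed to 372 and 597 CPM (elav, present in young neurons, at 97.2 and 247 CPM). The 4 measured glial genes summed to 570.4 and 376 CPM, and the 1 measured hemocyte gene, Sr-CI, was at 8.89 and 0.00 CPM. The part of these neuronal, glial and hemocyte genes in the results below was not tested. Of 9 neuroblast genes, 5 had both tumor plates above both control plates. For 2 of the 9, ase and nab, both tumor plates were below both control plates, with nab at 477 and 90.1 CPM in the pools. The RNAi target brat was at 312 and 374 CPM on the control plates and at 93.6 and 81.9 CPM on the tumor plates, 3.89-fold lower in tumor. The 4 genes pnt, btd, Sp1 and tll, which mark type II neuroblasts, summed to 287 CPM for control against 3218 for tumor, so that the pools also differ in neuroblast type, and the part of this in the values below was not tested. In type II-like cells alone, of which control had 8, 26 of the 33 genes kept the sign of the ratios given below and 11 moved by more than the SD over their plate pairs.

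Ribosomes begin in the nucleolus, where RNA polymerase I copies the ribosomal DNA into a long precursor. Small nucleolar ribonucleoproteins (snoRNPs) then modify it, the box C/D kind by methylating ribose and the box H/ACA kind by making pseudouridine, while assembly factors fold, trim and export the small and large subunits. The transcription factor Myc is known in flies and other animals to raise expression of many of these genes, and neuroblasts, which regrow after each division, have large nucleoli. Because the libraries start from polyadenylated RNA, the values below are messenger RNA levels of the factors and say nothing of ribosomal RNA output.

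Taken as a sum, messages of the 33 genes were 1.31-fold higher in tumor, with 6532 CPM against 4972 in the control pool. Most of that difference lay in a few abundant genes and not in the set as a whole. These were Non1 (479 and 1235 CPM in the control and tumor pools), Nop60B (654 and 1113 CPM), eIF6 (199.6 and 387 CPM) and nop5 (415 and 570 CPM). By plate the sum was 4969 and 4976 CPM on plates 1 and 2 and 6588 and 6470.4 CPM on plates 3 and 4, so the groups did not overlap. The genes did not share one direction. Of the 33, 20 had a higher pool level in tumor and 13 a lower one, and the median log2 ratio of tumor over control was 0.12 (0.07 to 0.21 over the 4 pairs of a tumor and a control plate), beside -0.03 for all features. The single ratios ran from -1.66 for Fib to 1.37 for Non1. These are ratios of summed reads, and for most of the genes the typical cell was lower in tumor. By medians over cells, 18 of the 33 kept the sign of their pool ratio. The median tumor cell was lower than the median control cell for 28 of the 33 genes and higher for 5, beside 66.1% and 14.1% of all features, and the median log2 difference of such medians was -1.05, beside -0.94 for all features. The 5 were nop5, Nop60B, Nopp140, Non1 and eIF6.

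At least a 2-fold higher level was reached by 2 members, Non1 and l(1)G0020, beside 14.6% of all features, and at least a 2-fold lower one by 1 member, Fib, beside 17.7%. Together these are 3 of 33, beside 32.3% of all features past 2-fold in either direction. By medians over cells the counts were 1 higher and 17 lower, beside 3.99% and 48.9% of all features, a share near that of features in general. Without control plate 2 the counts were 7 and 3, beside 19.1% and 20.3% of all features. The higher count was 1 without plate 1 or plate 3 (14.4% and 14.8% of all features) and 3 without plate 4 (15.1%), and the lower count was 3 without plate 3 (18.1%). Counting plates instead of folds, 14 members had both tumor plates above both control plates (31.7% of all features did) and 7 had both below (35.3% of all features), while 12 overlapped. Non1 and Fib were the 2 members past 2-fold in all 4 plate pairs.

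**Figure D1:**
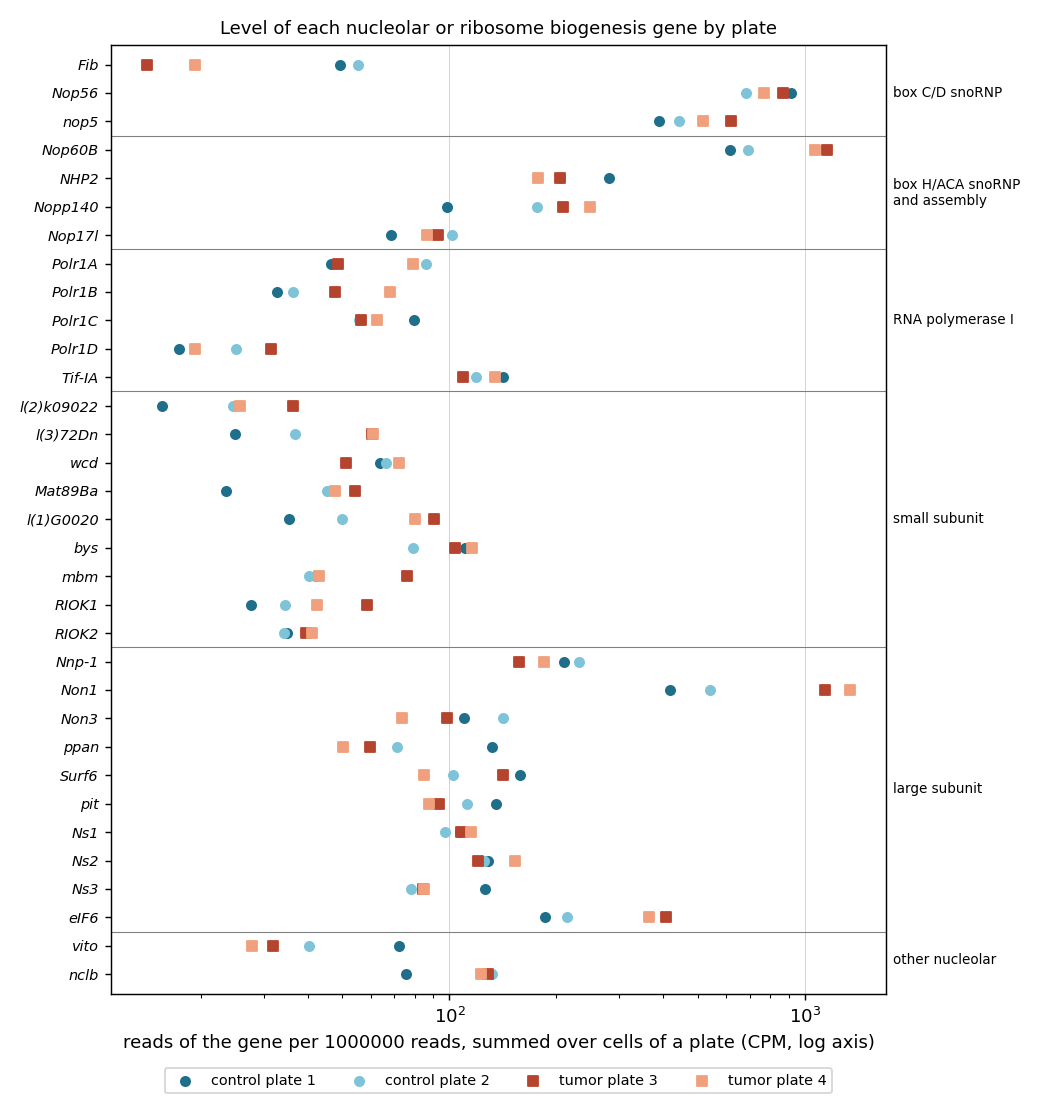
Level of each of the 33 genes on each plate, in reads per 1000000 summed over the cells of the plate, on a log axis, grouped by role. Circles are control plates and squares tumor plates. Fib lies far lower and Non1 far higher on both tumor plates, and for 12 genes the colors overlap.

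The box C/D core proteins parted from each other. Fib encodes fibrillarin, the methyltransferase of these particles, and was at 49.3 and 55.3 CPM on control plates and 14.1 and 19.3 CPM on tumor plates. Both tumor plates were far below both control plates, and the pool level was 3.17-fold lower, from 52.3 CPM (51.4 to 53.2, a 95% Poisson interval that covers counting error only) to 16.5 CPM (15.97 to 17.1). Nop56, which holds the particle together with nop5, was at 914 and 684 CPM on control plates and 869 and 769.8 CPM on tumor plates. Its groups overlapped, with a log2 ratio of 0.04. The gene nop5 was at 389 and 442 CPM on control plates and 618 and 516 CPM on tumor plates, all tumor values above all control values, with a log2 ratio of 0.46. Reads carry PCR copies and no molecular identifiers, so such an interval understates the error even of counting molecules.

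Among genes of box H/ACA particles and of snoRNP assembly, Nop60B was both the most abundant by level and the one with the highest ratio. It encodes the fly dyskerin, the pseudouridine synthase, and was at 615 and 694 CPM on control plates and 1151 and 1070.4 CPM on tumor plates. The groups did not overlap and the pool level was 1.70-fold higher (log2 0.77, 0.63 to 0.90 over plate pairs). Several small nucleolar RNA genes on the same strand overlap exons of Nop60B, each by 2.43% to 2.87% of its exonic bases. No value is given here for these. NHP2, a core protein of the same particle, was at 282 and 205 CPM on control plates and 204 and 176.9 CPM on tumor plates. Its tumor plates were lower, by a margin under 1 CPM between control plate 2 and tumor plate 3, and the pool log2 ratio was -0.35. Nopp140, a nucleolar chaperone of snoRNPs, went from a pool level of 137.3 CPM in control cells to 228 in tumor cells, with both tumor plates higher, but its control plates themselves stood at 98.4 and 176.6 CPM. Nop17l, related to an assembly factor of these particles in yeast and mammals, was at 84.9 and 89.7 CPM, with overlapping plates, and 6.51% of its exonic bases overlap PolZ1 on the other strand, a gene at 27.04 and 123.7 CPM.

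RNA polymerase I genes were nearly level between the pools as a sum, with 326 CPM in tumor against 319.8 in control. Their median log2 ratio was -0.07 from pool sums, whereas the medians of the 4 plate pairs lay between 0.02 and 0.17, so its sign depends on how plates are weighted. Tif-IA, the initiation factor that brings the polymerase to the promoter, was at 141.6 and 118.99 CPM on control plates and 109.4 and 134.4 CPM on tumor plates, which overlap. Polr1B, the second-largest subunit, was at 32.7 and 36.4 CPM on control plates and 47.8 and 68.2 CPM on tumor plates. It was the single member of this role with both tumor plates above both control plates (log2 ratio 0.73). Polr1C, shared with RNA polymerase III, was at 79.5 and 55.6 CPM on control plates and 56.5 and 62.4 CPM on tumor plates (log2 ratio -0.19, overlapping). Polr1A, the largest subunit, was at 46.4 and 86.1 CPM on control plates and 48.6 and 78.9 CPM on tumor plates. The spread of Polr1A within each group exceeded the difference between the groups.

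Polr1D, also shared with RNA polymerase III, lies next to the RNAi target, and 6 of its exonic bases (0.794%) overlap brat on the other strand. A larger part, 75 bases (9.92%), overlaps DCTN6-p27, also on the other strand. That gene was at 26.96 and 18.02 CPM in the control and tumor pools. Polr1D was at 17.3 and 25.1 CPM on control plates and 31.5 and 19.2 CPM on tumor plates, which overlap. Over the cells of plates 1 to 4 its Spearman correlation with brat was -0.01, -0.08, 0.05 and -0.02. The sources used here do not say whether reads were counted by strand, so reads of genes that overlap on opposite strands may be shared.

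Genes of the small subunit and of the large subunit are given side by side, with no test of the difference between these roles. Of 9 small subunit genes, 7 had both tumor plates above both control plates and 0 both below, with a median log2 ratio of 0.58. For all 9 the median tumor cell was nonetheless lower than the median control cell. Of 10 large subunit genes, 3 had both above and 4 both below, with a median of -0.23, which is close to the 31.7% and 35.3% of all features.

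In the small subunit role, l(1)G0020 had the highest ratio. It is the fly counterpart of human NAT10, which acetylates ribosomal RNA, and was at 35.4 and 49.7 CPM on control plates and 90.4 and 79.8 CPM on tumor plates. The plates did not overlap and the pool level was 2.01-fold higher. Its place among the 2-fold genes is narrow: the count of 2 became 1 without the last well of each plate. For l(1)G0020, as for the others of this role except wcd, the median over cells gave the opposite direction (34.5 CPM for control against 14.9 for tumor). Of its exonic bases, 7.20% overlap CG1785 on the other strand. The most abundant gene of this role by level, bys, encodes bystin, needed for late small subunit steps, and was at 110.8 and 79.2 CPM on control plates and 103.9 and 115.4 CPM on tumor plates, which overlap. The lowest ratio was that of wcd, a homolog of yeast Utp18 that fly neuroblasts need for growth. Its plates were at 63.7 and 66.5 CPM (control) and 51.2 and 71.9 CPM (tumor), which overlap.

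The other 6 small subunit genes had both tumor plates higher. A first set encodes parts of the early processome known from yeast and human counterparts: l(3)72Dn (Utp4, 30.8 and 60.7 CPM in the control and tumor pools), l(2)k09022 (Utp10, 20.1 and 31.4 CPM) and Mat89Ba (NOL6, 34.3 and 51.2 CPM). The log2 ratios of these were 0.98, 0.64 and 0.58. The protein of mbm is a nucleolar one needed for neuroblast growth, and its message was at 41.1 and 60.3 CPM, with tumor plate 4 (42.9 CPM) less than 1 CPM above control plate 1 (42.1 CPM). RIOK1 and RIOK2, kinases of the last small subunit steps, were at 30.98 and 51.01 CPM and at 34.6 and 40.1 CPM. For RIOK2, 48.5% of the exonic bases overlap an antisense RNA gene, asRNA:CR45214.

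The large subunit role held the member with the highest ratio of all. Non1, a nucleolar GTPase (NOG1 in human) that acts in early large subunit assembly, was at 417 and 540.4 CPM on control plates and 1138 and 1343 CPM on tumor plates. All tumor values exceeded all control values, and the pool level was 2.58-fold higher, from 479 CPM (476 to 481) to 1235 CPM (1229.9 to 1239.6). The log2 ratio was 1.37 and ran from 1.07 to 1.69 over plate pairs, and in the annotation no other gene's exons overlap it. The second-highest was eIF6, which keeps the large subunit from joining the small one too early, at 185.1 and 214 CPM on control plates and 406 and 365 CPM on tumor plates. Its plates did not overlap and its log2 ratio was 0.95.

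At the other end was ppan, whose yeast counterpart SSF1 acts in early large subunit assembly, at 131.7 and 70.97 CPM on control plates and 60.0 and 50.1 CPM on tumor plates. Both tumor plates were lower (log2 ratio -0.88), although control plate 2 was closer to the tumor plates than to control plate 1. Non3 (RPF2 in yeast) had a log2 ratio of -0.54, pit, a DEAD-box helicase known as a Myc-responsive growth gene, -0.45, and Nnp-1 (RRP1 in yeast) -0.38, each with both tumor plates lower. The nucleostemin family GTPases differed little: Ns1 was at 102.2 and 111.2 CPM in the control and tumor pools, Ns2 at 126.6 and 135.7 CPM, and Ns3, whose yeast counterpart acts in the cytoplasm on late large subunits, at 102.1 and 84.7 CPM. Surf6, a nucleolar protein, was at 130.5 and 114.5 CPM with overlapping plates. Of these 4, Ns1 alone had plates that did not overlap, with a log2 ratio of 0.12.

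Outside these roles were vito and nclb. The gene vito, a nucleolar protein gene known for growth control, was at 72.1 and 40.3 CPM on control plates and 31.9 and 27.8 CPM on tumor plates. Both tumor plates were lower, with a log2 ratio of -0.91. The counterpart of PWP1, nclb, was at 75.2 and 131.7 CPM on control plates and 128.6 and 122.5 CPM on tumor plates, so control plate 2 lay above both tumor plates.

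**Figure D2:**
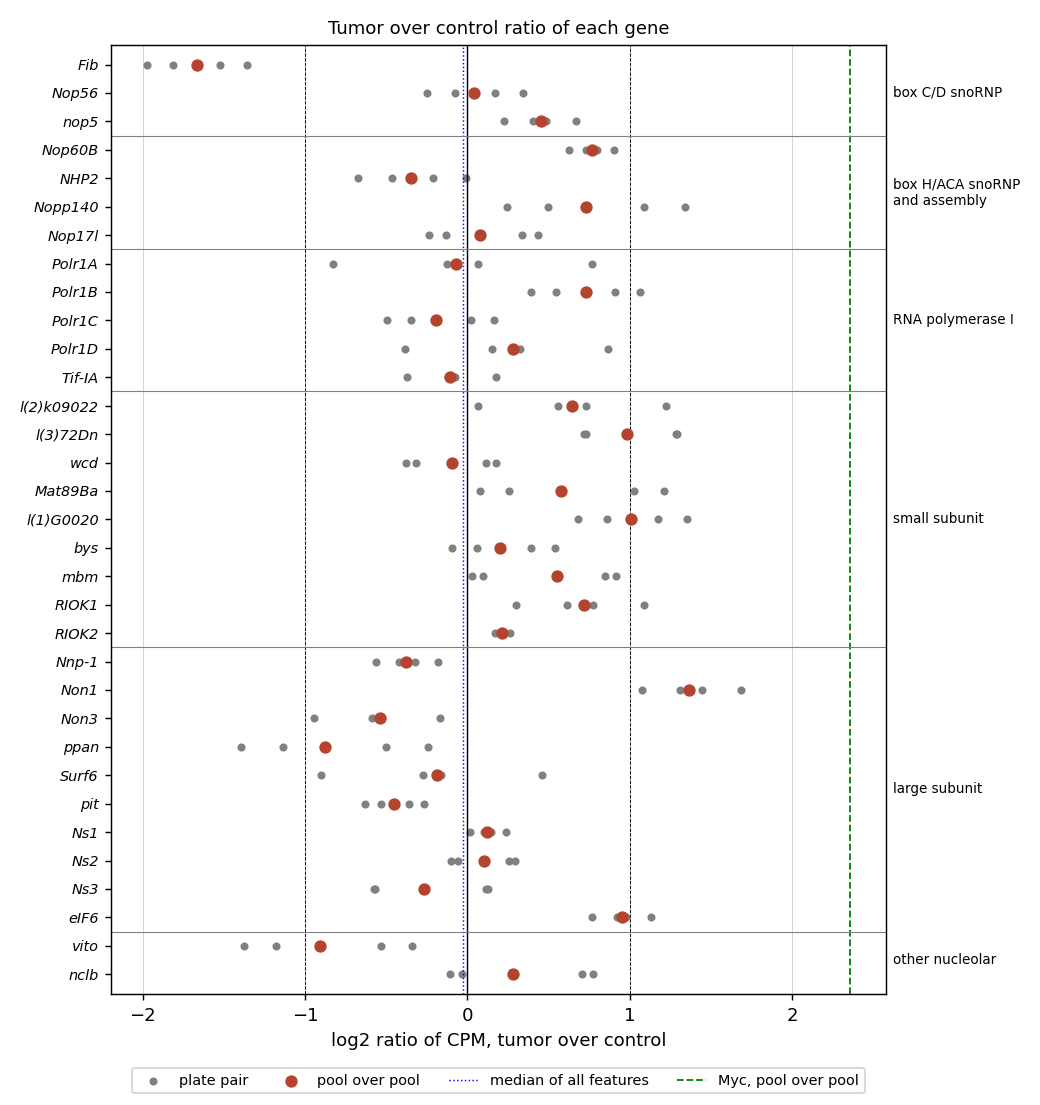
Log2 ratio of tumor over control for each gene, with the pool ratio as the marker and the 4 tumor plate over control plate ratios as its spread. The ratios run from -1.66 for Fib to 1.37 for Non1, and most lie within 1 of zero.

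Compared per kilobase of exon, which allows genes to be set beside each other, the most abundant messages in control were Nop56 at 458 CPM per kb, NHP2 at 312, nop5 at 229, Non1 at 210.3, Nop60B at 191.8 and eIF6 at 188.98. In tumor the order was different, with Non1 first at 543 CPM per kb, then Nop56 at 471, eIF6 at 366, Nop60B at 326, nop5 at 314 and NHP2 at 245. The same 6 genes led both pools. The lowest in both was l(2)k09022, at 3.10 and 4.85 CPM per kb. Exon length also moved with the ratio: members up to 1895 exonic bases (17 genes) had a median log2 ratio of 0.04 and longer ones (16 genes) 0.61, beside -0.37 and 0.20 for all features split at the same length. The part of length in the differences between roles was not tested.

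A wider list named for ribosome biogenesis, fixed so that it shares no member with the 33, also held genes with other main roles, such as Dbp80 below. Its 44 measured genes gave a median log2 ratio of 0.10. At least 2-fold higher were 4 of them and 3 were at least 2-fold lower, while 13 had both tumor plates above both control plates and 14 both below. These counts are near the 31.7% and 35.3% of all features, and those past 2-fold are below the 14.6% and 17.7%. Their sum was lower in tumor, with 6286 CPM against 6958 in control, unlike that of the 33 genes. Such sums rest mostly on a few abundant genes, such as Nlp (1626 and 1062 CPM) and Nph (1208 and 1048 CPM) here and Non1 among the 33 (479 and 1235 CPM). The lower sum is therefore no result about the pathway as a whole. By ratio, the highest of the wider list was Dbp80, a helicase whose counterparts act in messenger RNA export. It was at 22.1 and 22.3 CPM on control plates and 132.02 and 133.96 CPM on tumor plates. The groups were far apart, with a log2 ratio of 2.58. Sbds, which in human cells helps release eIF6 from the large subunit, was at 47.2 and 164.5 CPM in the control and tumor pools, and Nmd3, the large subunit's export adaptor, at 89.7 and 197 CPM. With eIF6 and Non1, these were 4 large subunit factors near or past 2-fold higher, picked out after their values were seen. The last of the 4 wider-list genes at least 2-fold higher was kz. It was at 6.37 and 16.8 CPM on control plates and 51.6 and 16.6 CPM on tumor plates, which overlap. Its log2 ratio ran from -0.01 to 3.02 over plate pairs. Lower were Dis3 (136.2 and 46.9 CPM) and Ski6 (69.1 and 28.3 CPM), both of the RNA exosome that trims ribosomal precursors, and Noc3 (174.2 and 77.8 CPM), a large subunit factor.

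Cytosolic ribosomal protein genes were higher across nearly the whole list, with 69 of 82 having both tumor plates above both control plates and a median log2 ratio of 0.62. Their sum went from 124528 CPM to 188459 CPM, and since CPM is a share of all reads, more reads there leave fewer per 1000000 for the rest. With totals that leave these genes out, the median log2 ratio of the 33 members was 0.23 and 4 were at least 2-fold higher. Mitochondrial ribosomal protein genes had a median log2 ratio of -0.65, with 52 of 71 having both tumor plates below both control plates. RNA polymerase II genes had a median of -0.53 (12 genes) and RNA polymerase III genes 0.49 (9 genes). The latter were split, with 5 having both tumor plates above both control plates and 4 both below (31.7% and 35.3% of all features). Their sum was lower in tumor, at 486 CPM against 579 in control.

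The share of cells with a read of each gene was higher in control. With every cell thinned to 100000 reads, the share of cells with a read ranged from 57.2% to 99.4% over the 33 genes in control (median 90%) and from 27.6% to 98.9% in tumor (median 60.5%). All 33 shares were lower in tumor, but so were those of 89.7% of all features, whose medians were 72.8% and 40.0%. Tumor cells also had fewer genes with a read in all, as given above, and the part of that in these shares was not tested. Without thinning the medians of the 33 were 95% and 66.5%.

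Fib again stood at the low end, whose read was found in 85.6% of control cells (exact Clopper-Pearson 95% interval 79.6 to 90.3) but 27.6% of tumor cells (21.3 to 34.6), with 93.3% and 34.1% before thinning. Its median cell stood at 44.4 CPM among control cells and 0.00 among tumor cells, and the 10 cells with most Fib reads held 16.01% of them in control and 46.3% in tumor. Cells that did have a Fib read held nearly the same mean number, 6.17 reads in control and 6.55 in tumor at 100000 reads a cell. At that depth, 5 or more Fib reads were found in 48.9% of all control cells and 11.9% of all tumor cells. The most widely detected genes were near full detection in both pools: Nop56 and Non1 each in 99.4% (control) and 98.9% (tumor), Nop60B in 99.4% and 97.3%.

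Among cells with a read, the mean number of reads was higher in tumor for 30 of the 33 genes, by a median of 1.51-fold, beside 6067 of 7339 features and 1.71-fold. For l(3)72Dn it was 4.45 reads in control and 13.5 in tumor, while the share of cells with a read was lower in tumor, so that a higher pool level came from fewer cells. Non1 differed from this: nearly all cells had it, positive cells held 46.6 and 124.2 reads, and its median cell had 479 CPM among control cells and 1192 among tumor cells.

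**Figure D3:**
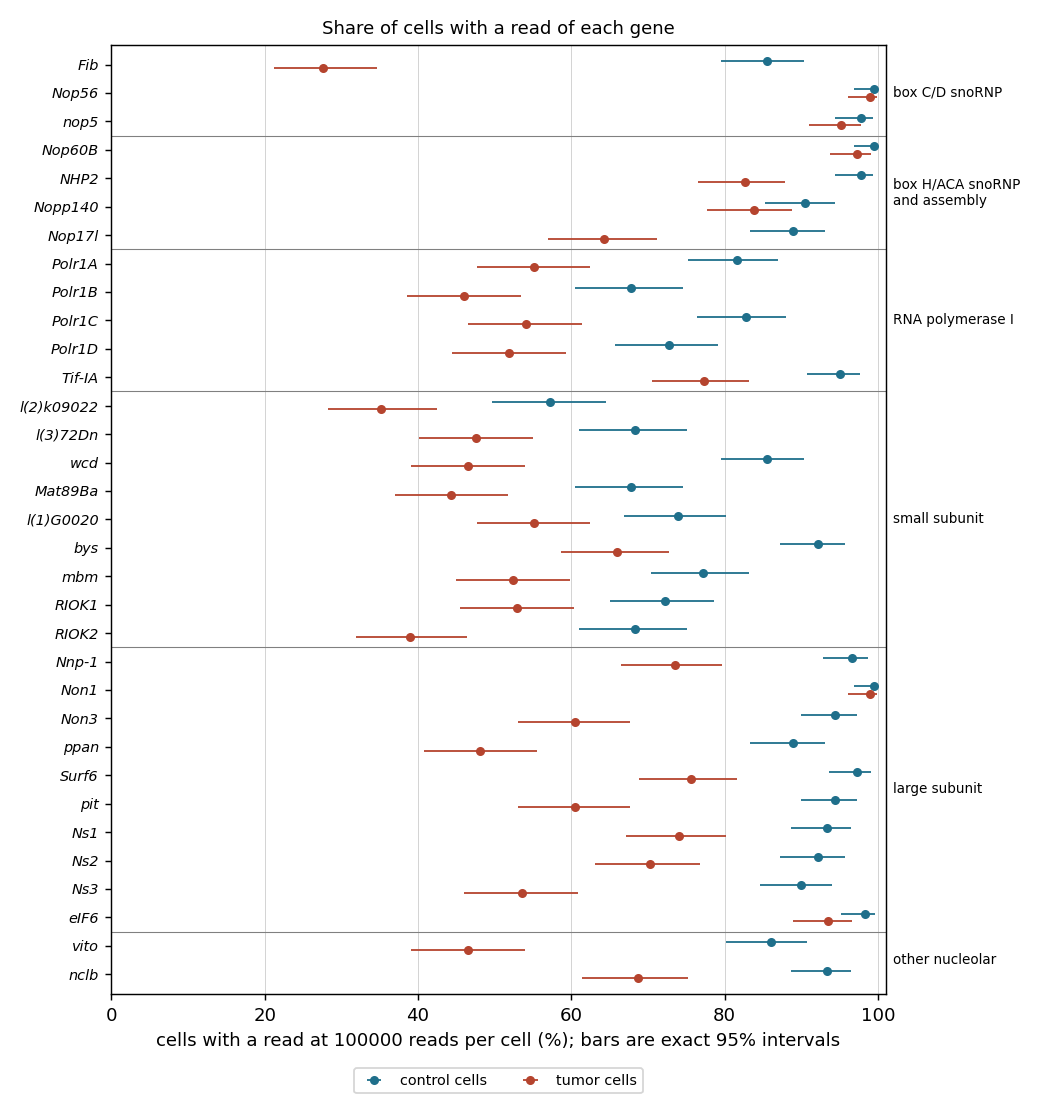
Share of cells with at least 1 read of each gene, in percent, at 100000 reads per cell, with exact 95% intervals as bars, over the kept cells of each pool. All tumor points lie left of the control points, with Fib farthest at 27.6% and 85.6%, and Non1, Nop56 and Nop60B close together above 97%.

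The part of a cell's reads that went to these genes had a wider spread among tumor cells. The 33 genes took a median of 0.502% of a control cell's reads (quartiles 0.448 and 0.546, range 0.00570 to 0.741) and 0.629% of a tumor cell's reads (quartiles 0.515 and 0.790, range 0.192 to 1.46). The plate medians were 0.501% and 0.505% in control and 0.624% and 0.634% in tumor, close to each other within a group. As with the pool sums, abundant genes such as Non1 and Nop60B weigh most in this part of the reads.

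Over cells, the genes were weakly correlated with each other. The median Spearman correlation over the 528 pairs was 0.13 and 0.15 on the control plates and 0.12 and 0.10 on the tumor plates, with 81.6% to 85.2% of pairs positive. For all features the medians were 0.05, 0.06, 0.06 and 0.06, and for 80 cytosolic ribosomal protein genes 0.24, 0.49, 0.31 and 0.35. Cells of a plate share differences in depth and genes per cell, and with both held fixed the member medians were 0.11 in control and 0.086 in tumor. In sparse counts a weak correlation is no finding.

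The strongest pairs were not the same in the pools. In control, 4 of the 5 highest involved Nopp140, led by Nopp140 with Nop17l at 0.48 and 0.46 on plates 1 and 2, followed by Nopp140 with Mat89Ba at 0.52 and 0.34. In tumor, the 3 highest were the pairs among Nop56, nop5 and Nop60B, core proteins of the box C/D and box H/ACA particles. Nop56 with Nop60B reached 0.46 and 0.48 on plates 3 and 4, nop5 with Nop60B 0.33 and 0.52, and Nop56 with nop5 0.26 and 0.51. These 3 genes are among the most abundant members, whose values over cells are least limited by missing reads.

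Myc itself was much higher in tumor. Its level was 222 and 335 CPM on control plates and 1548 and 1294 CPM on tumor plates, 5.13-fold higher in the pool, with no overlap. Its partner Max was at 89.1 and 58.6 CPM on control plates and 87.1 and 81.7 CPM on tumor plates, which overlap. Mnt, which opposes Myc at shared sites, was at 28.4 and 48.3 CPM on control plates and 85.2 and 80.4 CPM on tumor plates, with a log2 ratio of 1.11. Over cells Myc ranged from 20.0 to 1333 CPM on plate 1, 47.3 to 1597 on plate 2, 27.2 to 5975 on plate 3 and 102.1 to 4301 on plate 4. Of the exonic bases of Myc, 40.9% overlap CG12535 on the other strand, a gene at 1.16 and 3.00 CPM, and 20.3% overlap lncRNA:CR44999 on the same strand, for which no value is given here.

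Over tumor cells most members had a positive correlation with Myc, highest for snoRNP genes, and over control cells the values were spread around 0. The median correlation of the 33 genes with Myc was -0.01 and 0.03 on the control plates and 0.17 and 0.15 on the tumor plates, beside 0.03, 0.01, 0.00 and 0.00 for all features. Positive values were found for 13 and 20 of the 33 genes on the control plates and for 30 and 27 on the tumor plates. A correlation of at least 0.2 on both tumor plates was reached by 9 of the 33 (27.3%), beside 1.67% of all features, and on both control plates by 0, beside 1.36%. Among features of at least 50 CPM, where missing reads matter less, the tumor count was 7 of 24 members (29.2%), beside 3.29%. Myc itself had a wider range of levels over tumor cells, whose part was not tested.

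The 7 measured snoRNP genes had medians of 0.34 and 0.28 on the tumor plates, with 5 at 0.2 or more on both, and the other 26 genes 0.14 and 0.12, with 4. Nop60B had the highest correlation with Myc, 0.52 and 0.55 on plates 3 and 4, against 0.15 and 0.24 in control. With the ranks of reads and genes per cell held fixed, its tumor values were 0.53 and 0.55. For nop5 the tumor values were 0.41 and 0.50 and the control values -0.01 and 0.07. Nop56 stood at 0.34 and 0.28 on the tumor plates. These are the same 3 genes that led the pairs in tumor, and the percentile of Nop60B among all features there was 99.3.

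Members with large differences between the pools were unlike in this. For l(3)72Dn the tumor values were 0.25 and 0.26, while others were near 0. Non1 had correlations of -0.14 and 0.01 with Myc on the tumor plates, eIF6 -0.06 and -0.03, and Fib 0.09 and -0.03. Nop60B, by contrast, had both a higher tumor level and a high correlation. RNA polymerase I genes had medians of 0.12 and 0.02, with 0 of 5 at 0.2 or more on both tumor plates. The wider biogenesis list had 0.12 and 0.12, with 4 of 44, cytosolic ribosomal protein genes 0.19 and 0.13, with 9 of 82, and mitochondrial ribosomal protein genes 0.03 and 0.04, with 0 of 71.

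**Figure D4:**
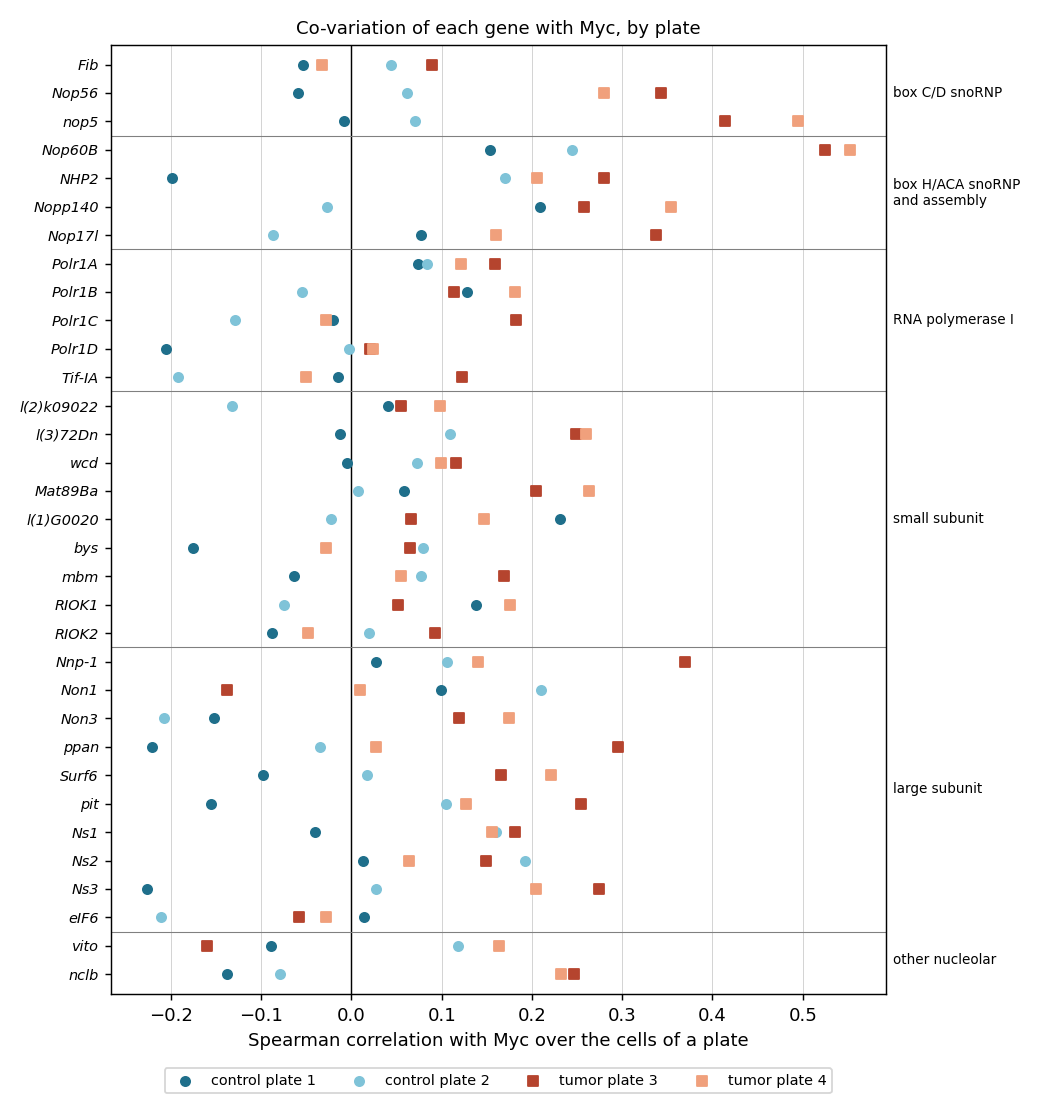
Spearman correlation of each gene with Myc over the cells of each plate. The tumor squares of Nop60B, nop5 and Nop56 lie right of all control circles of those genes, between 0.28 and 0.55, while those of Non1, eIF6 and Fib lie near or below zero.

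A score for each cell, the mean of log2(CPM + 1) over the 33 genes, was set beside scores of other lists in the same cells. In control, cells with a high score also had high scores for DNA replication and G1/S genes (0.73 and 0.63 on plates 1 and 2) and for G2/M genes (0.71 and 0.61). With reads and genes per cell held fixed these were 0.59 and 0.57, and 0.55 and 0.52. In tumor the G1/S values were 0.15 and 0.28 and the G2/M values 0.09 and 0.18, and with reads and genes per cell held fixed they were negative, at -0.38 and -0.38 for G1/S and -0.31 and -0.38 for G2/M. The score itself was correlated with reads per cell at 0.22 to 0.52 and with genes per cell at 0.44 to 0.71 over the 4 plates. The levels of both cell cycle lists were lower in tumor, with sums of 5074 and 1840.1 CPM for G1/S and 4618 and 1552 CPM for G2/M in control and tumor.

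For Myc the order was the reverse. The score was correlated with Myc at -0.07 and -0.10 in control and 0.39 and 0.32 in tumor, and with reads and genes per cell held fixed at -0.34 and -0.06 in control and 0.44 and 0.36 over tumor cells. Restricted to type II-like cells, the tumor value with both held fixed was 0.33 for Myc and -0.36 for G1/S. Other genes were also correlated with the score in tumor. Type II neuroblast genes had 0.36 and 0.41 there (0.24 and 0.27 with both held fixed), and 0.21 and 0.01 in control (-0.02 and -0.18). Mitochondrial ribosomal protein genes had 0.57 and 0.62 in tumor (0.02 and 0.07). They were correlated in control too, at 0.38 and 0.34 (0.10 and 0.29). Cytosolic ribosomal protein genes had 0.64 and 0.27 in tumor (0.42 and -0.21), and 0.18 and 0.09 in control (0.05 and 0.01). Ldh, lactate dehydrogenase, had 0.19 and 0.23 in tumor (0.34 and 0.51), and 0.14 and 0.08 in control (0.01 and -0.05). Single cell cycle genes did not all follow their lists in control. The gene stg, the Cdc25 phosphatase that starts mitosis, had 0.31 and 0.27, and -0.04 and 0.13 with both held fixed. PCNA, the replication clamp, had 0.03 and 0.42 before and 0.18 and 0.42 after. CycB did follow its list, with 0.66 and 0.48 before and 0.39 and 0.31 after. All of these describe the cells of 1 pool each.

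**Figure D5:**
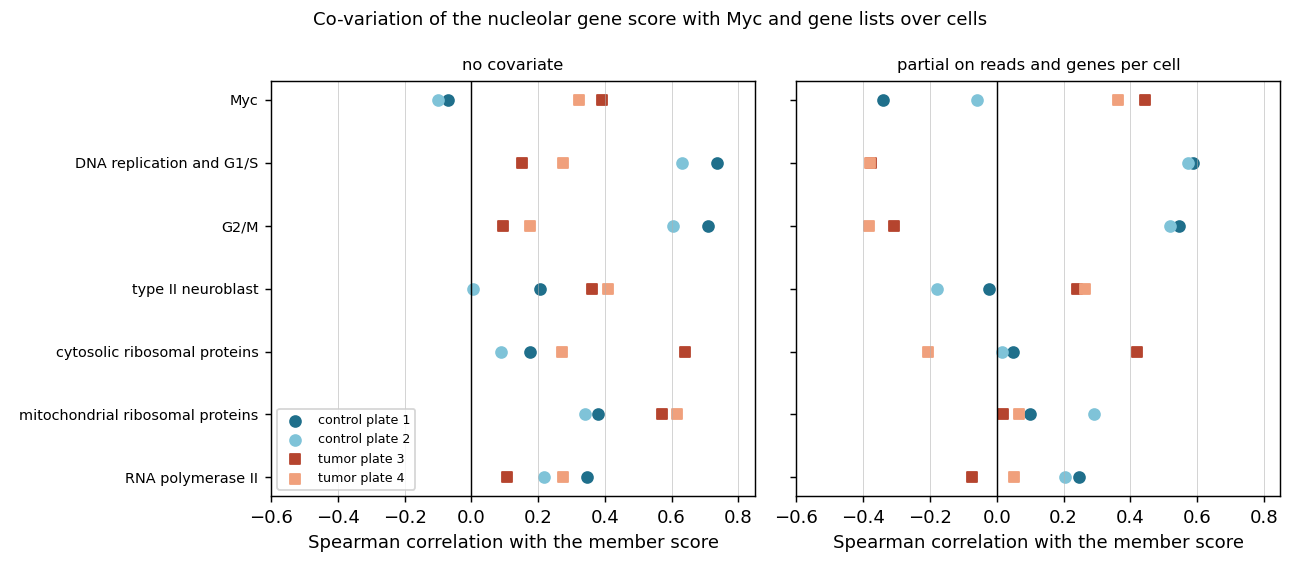
Spearman correlation over the cells of each plate between the mean log2(CPM + 1) of the 33 genes and Myc or the scores of other gene lists. In the left panel, with no covariate, cell cycle lists lie at 0.61 to 0.73 on the control plates and at 0.09 to 0.28 on the tumor plates. Myc lies there at -0.10 to -0.07 and at 0.32 to 0.39. In the right panel, with reads and genes per cell held fixed, cell cycle lists lie at 0.52 to 0.59 and at -0.38 to -0.31. Myc lies there at -0.34 to -0.06 and at 0.36 to 0.44.

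Among 5935 other genes of at least 10 CPM, those most like the score were different in the pools. In control they were Hsc70-5, a mitochondrial chaperone (median correlation over plates 0.62), RnrL, a ribonucleotide reductase subunit (0.59), FBgn0261014 (0.57, with no symbol in the tables used), CycB, the mitotic cyclin B (0.57), and Hsp83, the fly Hsp90 (0.56). In tumor they were CG8036 (0.51), Six4, a homeobox factor (0.50), PsGEF (0.47), Hex-A, a hexokinase (0.47), and Lrt (0.46). The median over all these genes was 0.17 in both pools. Myc stood at -0.09 in control and 0.36 in tumor.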

How the data were processed

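The deposited table gives unnormalized counts, whole numbers of reads for each gene in each cell, made by the authors. Libraries had 18 PCR cycles and no molecular identifiers, per the labels' protocols. Per the submitters' processing notes the builds were BDGP6 and dm6. Aligner, counter and strand setting are not stated there. Of 14219 features, 13702 IDs matched a symbol (94.8% of reads), 206 did not and 311 were transcript IDs. The symbol hoip may be among those without a match. Exon lengths and overlaps came from the Ensembl annotation on BDGP6.

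The labels name no plate for a cell. Plates were inferred from the 384 well labels, which form 4 blocks of 96 that repeat the same index sequences. Cells under 100000 reads or 1000 genes were left out (12 control and 7 tumor wells), and doublets were not called, as the labels describe single-cell sorting. The last well of each block had more genes (6976 to 7758) than any other in it and was kept. Whether it held more than 1 cell is unknown. Reads were summed over cells by group and plate and given per 1000000. Ratios are tumor over control. Intervals are exact Poisson or Clopper-Pearson at 95%, cover counting error only, and no test was made. Correlations are Spearman's over the cells of a plate on log2(CPM + 1) and carry no p-value. A cell was type II-like with 5 or more reads for 3 or more of the genes Sp1, tll, btd and pnt.

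Given by plate are, in each role, the member with the highest level and those with the highest and lowest ratio, members past 2-fold in all plate pairs, Polr1D, Myc, Max, Mnt and brat. Wider-list genes past 2-fold are given by pool, and Dbp80, with the highest ratio, also by plate. Polr1A and eIF6 were added after their values were seen. The members and lists were chosen with earlier results of these data known. Alternatives covered scaling (including TMM from edgeR), cell weights, filters, thinning, covariates and plates. Steps were tested on simulated data. Tools were Python 3.11.15, numpy 2.4.6, pandas 2.3.3, scipy 1.17.1, matplotlib 3.10.9, R 4.3.3 and edgeR 4.0.16.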

Additional observations from a re-analysis of the deposited data

How the results depend on the processing

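The median log2 ratio of the 33 genes (0.12) was 0.19 with equal weight for each cell, 0.23 in type II-like cells (8 control cells), 0.23 with totals that leave out cytosolic ribosomal protein genes, -1.05 as a difference of medians over cells (-0.94 for all features), and 0.13 to 0.20 with each plate left out. The count at least 2-fold higher (2) was 4 with TMM, with median-of-ratios factors, without the 100 most abundant features and without ribosomal protein genes in the totals, 1 by medians over cells and without the last well of each plate, and 1 to 7 with each plate left out. The count at least 2-fold lower (1) was 17 by medians over cells (48.9% of all features) and 1 to 3 with each plate left out. By medians over cells, l(1)G0020 turned to -1.16 and 18 of 33 genes kept their sign, whereas under TMM, median-of-ratios and the totals without abundant features all 33 kept it. In type II-like cells 26 kept it and 11 moved, and with each plate left out 27 to 31 kept it. Non1 stayed between 1.19 and 1.57 in all alternatives. The median share of cells was 95% in control and 66.5% in tumor without thinning, 71.7% and 48.1% at 5 reads or more, and 88.8% to 93.4% and 55.4% to 61.3% with each plate left out. The median correlation among the genes was 0.137 in control and 0.108 in tumor. In control it was 0.31 by Pearson, 0.12 in thinned cells, 0.11 with reads and genes per cell held fixed, 0.096 under the filter of 500000 reads and 2000 genes, and 0.13 to 0.15 with each plate left out. In tumor it was 0.14 by Pearson, 0.086 with both held fixed, 0.088 under that filter, 0.13 for the 24 genes of at least 50 CPM, and 0.098 to 0.12 with each plate left out. The correlation with Myc was 0.0067 in control (0.043 by Pearson, -0.014 to 0.028 with each plate left out) and 0.16 in tumor (0.15 to 0.17). The totals without ribosomal protein genes and the last wells were chosen after seeing the data. The cause of these shifts was not tested. No paired analysis was possible because the numbers the groups share only name cells and no result comes from a test.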

Other observations

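The 12 control and 7 tumor wells left out for low depth or few genes held 293641 and 72374 reads in all. In them the 33 genes summed to 3055 and 829 CPM, below the 4972 and 6532 CPM of the kept cells.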
